A study of Mus musculus with 6 samples.

Results

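The immediate early response genes *Egr1*, *Egr2*, *Egr3*, *Nr4a1*, *Fos*, *Fosb*, *Jun*, *Junb*, *Jund* and *Ier2* were followed in germinal center (GC) B cells that had or lacked HVEM, a receptor of the tumor necrosis factor receptor superfamily encoded by *Tnfrsf14*. They were chosen by name, and all 10 were found among the 23337 genes of the expression table. RNA was sequenced from 3 samples of WT and 3 samples of *Hvem*-/- GC B cells, sorted as B220+ GL7+ Fas+ cells with low IgD and CD38. Every sample came from mixed bone marrow (BM) chimeras, irradiated mice rebuilt with a mix of WT and *Hvem*-/- marrow, at day 11 after immunization with the hapten-carrier antigen NP-CGG in alum. Reconstitution with the marrow is given as 8 weeks for every sample. Both groups had the C57BL/6 background. The labels give the congenic marker of the WT cells as CD45.1/2 and that of the *Hvem*-/- cells as CD45.2, so genotype and donor line cannot be told apart. The deletion was in the donor marrow and so was not limited to B cells, and WT and *Hvem*-/- cells shared their hosts' environment. WT samples are numbered 1, 3 and 5 and *Hvem*-/- samples 2, 4 and 6. The study describes both genotypes as sorted from shared chimeras, but no source says which WT sample belongs with which *Hvem*-/- sample, so all comparisons are unpaired.

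Immediate early genes are transcribed within minutes of a signal without the need for new protein synthesis, mainly through pre-existing factors such as SRF, with its ELK partners, and CREB. Most encode transcription factors that pass the signal on to later genes, and their transcripts are short-lived. In B cells they are induced through the antigen receptor, CD40 and other inputs that activate ERK, and in GC B cells such inputs come mostly from contact with antigen on follicular dendritic cells and from T follicular helper cells.

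The promoters of 7 of the 10 genes (*Egr2*, *Fos*, *Fosb*, *Jun*, *Junb*, *Jund* and *Nr4a1*) were matched in RefSeq (GRCm38.p6), as the 250 bases before to 50 after each of 11 annotated starts. Because the factors named above act through short DNA elements near the start of a gene, 30-base windows are shown around matches to these elements, read 5′ to 3′ on the strand of the gene, with the match in capitals. The SRF element, the CArG box, was found in *Egr2* alone among the 7 genes, against 1.81% of 27025 genes, each counted once over all its starts. The letters TGACG, the core of the element bound by CREB, were present on either strand in 5 of 7 genes (*Egr2*, *Fos*, *Fosb*, *Junb* and *Nr4a1*) and in 23.05% of all genes. The full palindrome TGACGTCA, which contains that core, was in none of the 7 and in 2.03% of all genes. The AP-1 element TGANTCA, bound by the FOS and JUN proteins themselves, was likewise in none of the 7 and in 8.97% of all. The element GCGNGGGCG, bound by the EGR proteins, was in *Fosb* and *Nr4a1* and in 6.27% of all genes. Genes with several starts, such as *Egr2* here, had more sequence in which a match could occur. A match describes the letters and not a site in use. Sequence outside these promoter stretches was not searched, so a gene without a match may hold the element farther away.
Egr2 CArG box (chr10:67537484-67537513, plus strand, 72 bases before a start): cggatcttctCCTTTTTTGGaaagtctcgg
Egr2 CArG box (chr10:67537787-67537816, plus strand, 72 bases before another start): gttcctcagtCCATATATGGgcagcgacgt
Fos TGACG (chr12:85473812-85473841, plus strand, 66 bases before the start): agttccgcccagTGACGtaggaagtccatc
Fosb TGACG (chr7:19310088-19310117, minus strand, 60 bases before the start): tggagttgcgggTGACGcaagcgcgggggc
Junb TGACG (chr8:84978837-84978866, minus strand, 106 bases before the start): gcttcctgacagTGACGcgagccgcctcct
Nr4a1 TGACG, read here as CGTCA (chr15:101266794-101266823, plus strand, 40 bases before the start): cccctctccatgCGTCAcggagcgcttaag
Fosb EGR element (chr7:19310076-19310105, minus strand, 50 bases before the start): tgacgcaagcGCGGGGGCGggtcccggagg
Nr4a1 EGR element, read here on the other strand (chr15:101266776-101266805, plus strand, 60 bases before the start): gcgtcagtggCGCCCCCGCccctctccatg
In *Fosb* and *Nr4a1* the EGR element and a TGACG core thus lay within the same stretch of promoter.

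Reads in genes numbered 2557741 to 3636163 per WT sample and 2505918 to 3321048 per *Hvem*-/- sample, from RNA amplified out of 50000 sorted cells each. The GC identity was checked on 12 GC B cell markers, among them *Bcl6*, whose summed level was 7493 to 7734 CPM (reads scaled to the sample's total reads in genes) in WT and 7264 to 7476 in *Hvem*-/-. The deleted gene itself gave few reads. WT replicates 1, 3 and 5 had 13, 11 and 17 reads of *Tnfrsf14*, against 0, 0 and 4 for *Hvem*-/- replicates 2, 4 and 6, so that the groups did not overlap. Its pooled level was 9.03-fold higher in WT (95% exact interval 3.27 to 34.7, counting error only), but edgeR, which includes the spread between samples, gave a log2 fold change of -3.04 with an adjusted p of 0.178.

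The 10 genes differed widely in level, and *Egr1* was far above the others. Levels between genes were compared as CPM per kilobase of the longest annotated transcript. *Egr1*, a zinc finger factor induced by ERK signaling, had 23.9 to 30.5 (median 26.5) over the 6 samples, above the median of 10.7 of all tested genes and at their percentile 75.5. *Egr2*, a zinc finger factor of the same family, followed with 5.65 to 9.65 (median 6.85). *Jund*, the JUN family member known for steady rather than inducible expression, had 3.96 to 10.1 (median 5.37). *Junb*, another JUN protein, had 1.54 to 3.74 (median 3.07). The mean level of *Egr1* was 3.69-fold that of *Egr2*, and their ranges did not overlap. On this scale *Egr2* and *Jund* overlapped and changed places between samples, with *Egr2* higher in 4 of 6. The ranges of *Jund* and *Junb* did not overlap on this scale.

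Below these 4 genes, neighbours in the order could not be separated by their ranges. The means were 1.61 for *Ier2*, 1.52 for *Nr4a1*, 0.989 for *Fos*, 0.886 for *Jun*, 0.616 for *Egr3* and 0.118 for *Fosb*, all at or below percentile 6.57 of the tested genes. Dividing by the mean length over annotated transcripts left *Egr1*, *Egr2*, *Jund*, *Junb* and *Fosb* in places 1, 2, 3, 4 and 10, while the other 5 changed places among themselves. On that scale *Egr1* had 2.32-fold the mean level of *Egr2* and lay at percentile 63.1 of the tested genes. *Egr2* was then above *Jund* in 6 of 6 samples, at 2.27-fold the mean and without overlap, whereas the ranges of *Jund* and *Junb* overlapped. *Fos* and *Jun*, the factors after which the AP-1 complex is named, were thus close to the lower limit of what these samples could measure.

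**Figure D1:**
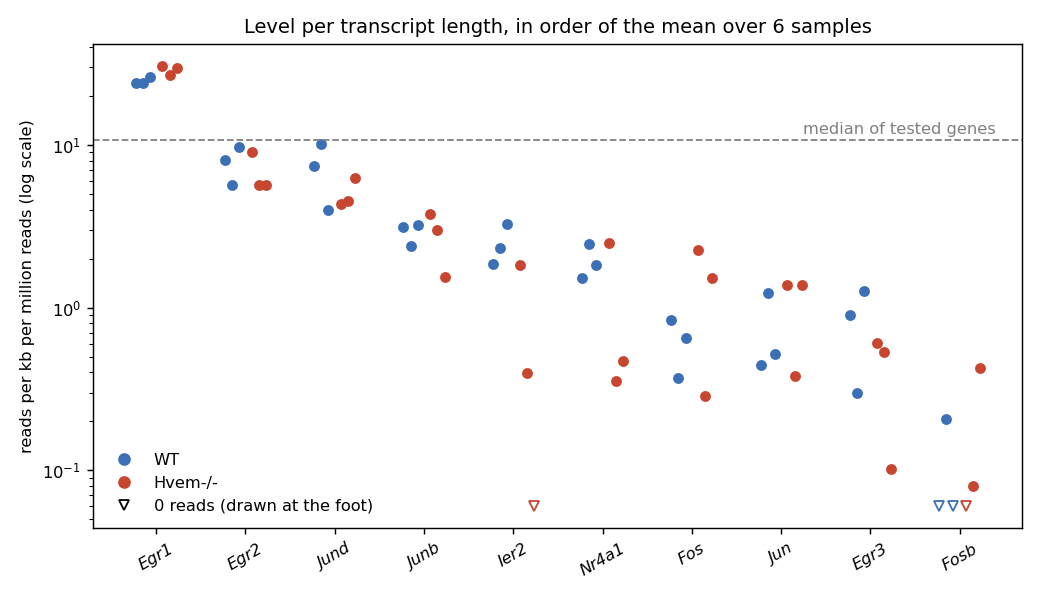
Level of each of the 10 genes in CPM per kilobase of the longest transcript, on a log axis, with 1 point for each of the 6 samples (WT blue, *Hvem*-/- red), open triangles at the foot for samples with 0 reads and a dashed line at the median of tested genes. *Egr1* lies above every other gene in all 6 samples, at 23.9 to 30.5, and *Fosb* is lowest, at 0 to 0.422.

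The comparison of *Hvem*-/- with WT GC B cells asks whether loss of the receptor on the B cell leaves a trace in these signal-responsive transcripts. By edgeR's quasi-likelihood test, none of the 6 genes with enough reads to be tested (*Egr1*, *Egr2*, *Nr4a1*, *Jun*, *Junb* and *Jund*) passed an adjusted p of 0.01. Among all 9653 tested genes, 21 passed, or 0.218%, 18 of them higher in *Hvem*-/- and 3 lower. At an adjusted p of 0.05 the count was 49 genes, or 0.508%, and again 0 of these 6. At an unadjusted p under 0.05, 1 of the 6 was higher in *Hvem*-/- (*Egr1*) and 0 were lower, against 6.72% and 5.22% of all tested genes. DESeq2, which gave an adjusted p to *Egr1* alone of the 6, and limma on the log2 scale also called 0 of them. The log2 fold changes were above 0 for 2 genes and below 0 for 4, with a median of -0.08 beside -0.01 over all tested genes. In bulk samples, fewer cells expressing a gene and less RNA per cell cannot be told apart.

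**Figure D2:**
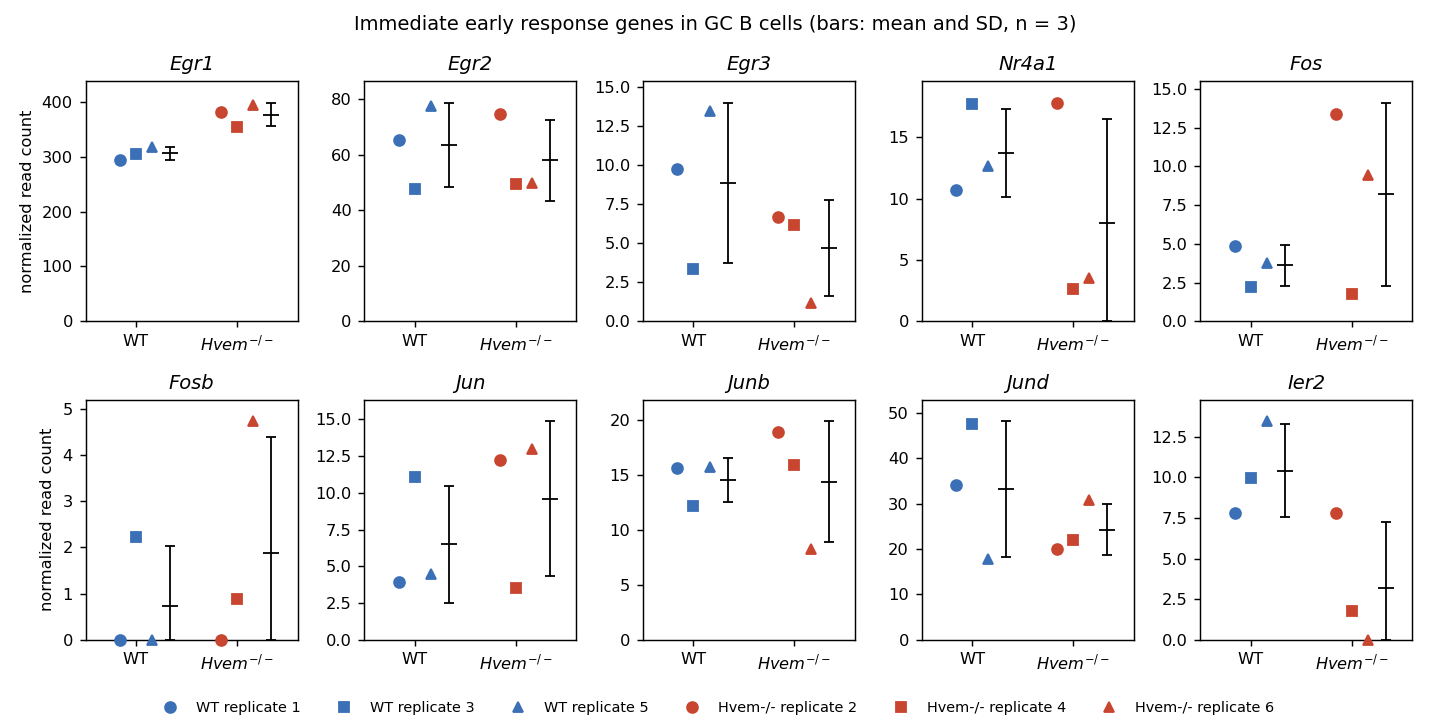
Normalized read count of the 10 genes in each sample, WT in blue and *Hvem*-/- in red, with a separate linear axis from 0 for each gene. Horizontal marks and bars give the mean and SD of 3 samples, with bars ending at 0 where they would go below it. *Egr1* shows 3 WT values from 295 to 318 and 3 *Hvem*-/- values from 353 to 395, whereas *Egr2*, *Nr4a1*, *Fos*, *Jun*, *Junb* and *Jund* overlap between the genotypes.

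*Egr1* was the best measured of the 10 genes and the one with the clearest separation. Its normalized read count was 295, 305 and 318 for WT (replicates 1, 3 and 5, the order used throughout) and 382, 353 and 395 for *Hvem*-/- (replicates 2, 4 and 6), from 275 to 426 reads. The lowest *Hvem*-/- sample was above the highest WT sample. Groups separated upward in this way in 8.74% of all tested genes and downward in 8.09%. The means were 306 ± 11.7 and 377 ± 21.3 (SD, n = 3 each). edgeR's log2 fold change was 0.29 (SE 0.138, 95% interval 0.0053 to 0.58), a 1.22-fold higher level, with an unadjusted p of 0.0463 and an adjusted p of 0.408. The difference therefore did not pass the test across genes. Over the alternative settings the log2 fold change was 0.26 to 0.51, with an adjusted p of 0.150 to 0.723. These settings refit the same samples, whose groups did not overlap, so the shared direction adds no support. The unadjusted p of *Egr1* stayed under 0.05 in 6 of 13 alternative fits. It did not in the other 7, which were upper-quartile factors, no filter on low counts (0.0607) and the fits without WT replicate 1, 3 or 5 or *Hvem*-/- replicate 2 or 6.

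*Egr2*, which is induced with *Egr1* and can restrain lymphocyte activation, had normalized counts of 65.4, 47.7 and 77.7 in WT and 74.6, 49.5 and 49.7 in *Hvem*-/-. The groups overlapped almost fully, with means of 63.6 ± 15.1 and 57.9 ± 14.5 (SD, n = 3 each). Its log2 fold change was -0.15 (SE 0.284, 95% interval -0.75 to 0.44, edgeR adjusted p = 0.873), and it was 0.03 without WT replicate 5. *Egr3*, a further member of the family, was read only 10, 3 and 18 times in WT and 6, 7 and 1 times in *Hvem*-/-, too few for the main test. Pooled, WT had 1.95-fold the level of *Hvem*-/- (95% exact interval 1.01 to 3.97, counting error only), and edgeR without a filter on low counts gave a log2 fold change of -0.91 with an adjusted p of 0.765. The samples of the 2 genotypes overlapped for *Egr3*.

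The Egr family was made up mostly of *Egr1* transcripts in every sample. *Egr1* held 77.7% to 88.6% of the family's reads, *Egr2* 11.1% to 19.0% and *Egr3* 0.265% to 3.28%. Per kilobase of transcript, the share of *Egr1* was 70.6% to 83.8%.

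*Nr4a1* encodes the orphan nuclear receptor NUR77, widely used as a reporter of antigen receptor signaling. Its reads numbered 11, 16 and 17 in WT, against 16, 3 and 3 in *Hvem*-/-, or normalized counts of 10.7, 17.8, 12.7, 17.8, 2.65 and 3.55. *Hvem*-/- replicate 2 was as high as the highest WT sample, while replicates 4 and 6 were below all 3 WT samples. The means were 13.7 ± 3.62 in WT and 8.01 ± 8.51 in *Hvem*-/- (SD, n = 3 each). The log2 fold change was -0.79 (SE 0.674, 95% interval -2.20 to 0.61, edgeR adjusted p = 0.690). This estimate turned on single samples, from -2.12 without *Hvem*-/- replicate 2 (adjusted p = 0.226) to -0.34 without *Hvem*-/- replicate 4.

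*Ier2*, a small nuclear protein gene without introns that is induced together with *Fos* and *Jun*, was read 8, 9 and 18 times in WT and 7, 2 and 0 times in *Hvem*-/-. As normalized counts these were 7.81, 9.99, 13.4, 7.80, 1.77 and 0. The groups did not overlap, but the nearest samples were at 7.81 and 7.80. A count of 0 in replicate 6 allows up to 3 reads. Pooled over samples, WT had 35 reads and *Hvem*-/- 9, a level 3.43-fold higher in WT (95% exact interval 1.61 to 8.11, counting error only). That interval leaves out the spread between samples. In edgeR without a filter on low counts, which includes that spread, the log2 fold change was -1.69 (SE 0.912) with an unadjusted p of 0.0633 and an adjusted p of 0.529.

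The AP-1 genes *Fos* and *Fosb*, whose proteins bind DNA as partners of JUN proteins, were barely detected. *Fos* was read 5, 2 and 5 times in WT and 12, 2 and 8 times in *Hvem*-/-. The *Hvem*-/- samples included both the highest value and the lowest normalized one (13.4 and 1.77), so the groups overlapped. The pooled ratio of *Hvem*-/- to WT was 2.08 (95% exact interval 0.986 to 4.61, counting error only), and the unfiltered edgeR fit gave a log2 fold change of 1.12 with an adjusted p of 0.748. *Fosb* was read 0, 2 and 0 times in WT and 0, 1 and 4 times in *Hvem*-/-, a ratio of 2.84 with an interval from 0.465 to 29.8. A difference in *Fosb* was not detectable at this depth.

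Of the JUN genes, *Jun* encodes the strongest transcriptional activator of the family, and *Junb* and *Jund* can moderate its activity. *Jun* had normalized counts of 3.91, 11.1 and 4.48 in WT and 12.3, 3.53 and 13.0 in *Hvem*-/-, so that 2 *Hvem*-/- samples were above and 1 was below all WT samples. Its log2 fold change was 0.56 (SE 0.705, 95% interval -0.91 to 2.03, edgeR adjusted p = 0.806), and it was 1.13 without WT replicate 3 and 0.28 without *Hvem*-/- replicate 6. *Junb* had 15.6, 12.2 and 15.7 in WT and 18.9, 15.9 and 8.28 in *Hvem*-/-, with means of 14.5 ± 1.99 and 14.4 ± 5.49 (SD, n = 3 each). The log2 fold change of *Junb* was -0.02 (SE 0.520), with a 95% interval from -1.10 to 1.07 that leaves room for a change in either direction. *Jund* had 34.2, 47.7 and 17.9 in WT and 20.05, 22.1 and 30.7 in *Hvem*-/-. WT replicate 5 was the lowest sample and WT replicate 3 the highest, and the log2 fold change was -0.44 (SE 0.424, 95% interval -1.32 to 0.44, edgeR adjusted p = 0.733). Without WT replicate 3 it was -0.10.

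The makeup of the JUN family varied as much between samples as between genotypes. *Jund* supplied 39.1% to 67.2% of its reads, *Junb* 15.9% to 41.2% and *Jun* 7.27% to 25.0%. In WT, the share of *Jund* was 63.6%, 67.2% and 47.1%. In *Hvem*-/- it was 39.1%, 53.2% and 59.1%, which overlaps the WT values.

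**Figure D3:**
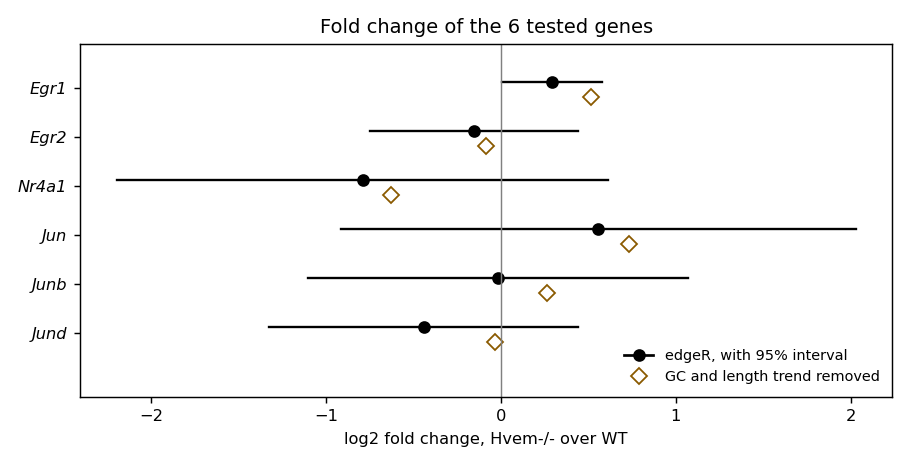
Log2 fold change of *Hvem*-/- over WT for the 6 tested genes, with black points and 95% intervals from edgeR and open diamonds after a trend on GC content and transcript length was removed. The interval of *Egr1*, 0.0053 to 0.58, starts just above 0, and the other 5 intervals include 0.

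*Egr1* supplied 70.2% of the pooled reads of all 10 genes, so its share largely follows its own count and is no separate result. Its share was 65.9%, 66.4% and 66.7% in WT and 69.0%, 77.2% and 76.6% in *Hvem*-/-, with no overlap between the groups. The pooled shares were 66.4% of 1511 reads (95% exact Clopper-Pearson interval 63.9% to 68.8%) and 74.2% of 1451 reads (71.9% to 76.5%), intervals that cover counting error only. The summed normalized counts of the other 9 genes were 152, 154 and 159 in WT and 172, 104 and 121 in *Hvem*-/-. *Hvem*-/- replicate 2 was thus above all WT samples in this sum and replicates 4 and 6 were below them. All 10 genes together reached 461 ± 15.1 in WT and 509 ± 48.4 in *Hvem*-/- (SD, n = 3 each).

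The order of the samples differed from gene to gene. *Hvem*-/- replicate 2 was the highest *Hvem*-/- sample for 6 of 10 genes (*Egr2*, *Egr3*, *Nr4a1*, *Fos*, *Junb* and *Ier2*), and WT replicate 5 was the highest WT sample for 5. Replicate 6 was the lowest *Hvem*-/- sample for 3 genes (*Egr3*, *Junb* and *Ier2*), yet the highest of all 6 samples for *Egr1*, *Fosb* and *Jun*. Over the 15 pairs of tested genes, the deviations of log2 CPM from the genotype means had a Pearson's r above 0 for 8 pairs and below 0 for 7. The range was from -0.81 for *Egr2* and *Jund* to 0.66 for *Egr2* and *Junb*, over 6 samples that share depth and library effects. Outside the family, the 5 tested genes whose levels followed the mean log2 CPM of the 6 tested members most closely were *Specc1* (r = 0.980), *Tspan31* (0.977), *Ip6k1* (0.973), *Pld2* (0.972) and *Phtf1* (0.972). These were picked from all tested genes for this likeness over 6 samples, and the values are a description.

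What the genes shared apart from their role was a GC-rich transcript. *Egr1* (57.3% GC), *Nr4a1* (57.0%), *Junb* (62.6%), *Jund* (67.1%) and *Ier2* (60.9%) had a GC content within the highest decile of tested genes, and that of the other 5 fell within deciles 7 to 9. *Ier2*, *Egr3*, *Fos* and *Fosb* were themselves not tested, so only their GC content is placed. The transcripts of *Jun*, *Junb*, *Jund* and *Ier2* have 1 exon. Fold changes in these samples depended on GC content, with a median log2 fold change of 0.21 in the decile lowest in GC, -0.20 in decile 9 and -0.26 in the highest. In that highest decile, 64 of 954 genes (6.71%) had a log2 fold change above that of *Egr1*. After a trend on GC content and transcript length was removed from each sample, the log2 fold change of *Egr1* was 0.51 (SE 0.139, edgeR unadjusted p = 0.0014, adjusted p = 0.150). On the same footing *Jund* went to -0.03 and *Junb* to 0.26, with 3 of the 6 tested genes above 0 and 3 below. The number of genes called among all tested was 9 after this step.

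**Figure D4:**
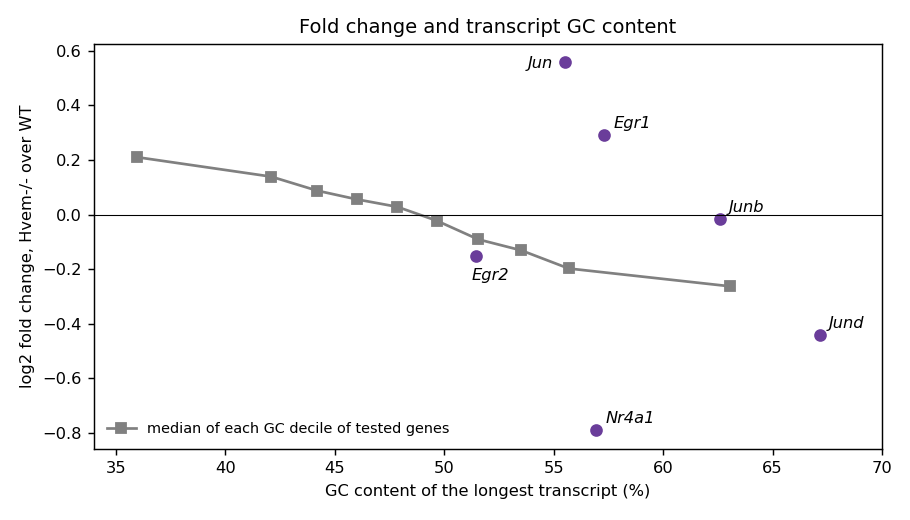
Log2 fold change of *Hvem*-/- over WT against the GC content of the longest transcript, with the 6 tested immediate early genes as purple points and the median of each decile of tested genes as grey squares, placed at the middle of the decile's GC range. The grey medians run from 0.21 to -0.26, and *Egr1*, at 0.29, lies above them.

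Other early response transcription factors were examined for the same pattern. Of 22 genes fixed as a list, 13 had enough reads to test, and 0 passed an adjusted p of 0.01 in either direction. At an unadjusted p under 0.05, 1 was higher in *Hvem*-/- and 2 were lower, against 6.72% and 5.22% of all tested genes. The median log2 fold change was 0.18, or 0.03 after the GC and length trend was removed and -0.26 without *Hvem*-/- replicate 4. *Myc*, the cell growth factor that GC B cells switch on when they receive T cell help, had 221, 336 and 282 normalized counts in WT and 311, 340 and 541 in *Hvem*-/- (log2 fold change 0.50, SE 0.191, edgeR adjusted p = 0.293). Its groups overlapped, and *Hvem*-/- replicate 6 was the highest sample. *Mafk*, a small MAF protein, had 39.1, 47.7 and 40.3 in WT and 18.9, 17.7 and 20.1 in *Hvem*-/-, with no overlap (log2 fold change -1.17, SE 0.370, adjusted p = 0.202). *Ier5*, a relative of *Ier2*, had 93.7, 53.3 and 104 in WT and 73.5, 52.1 and 22.5 in *Hvem*-/- (log2 fold change -0.77, adjusted p = 0.371). Of the close relatives of the 10 genes, *Egr4* and *Nr4a2* had 0 reads in every sample, *Fosl1* had 1 read in all and *Nr4a3* had 6.

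A list of 34 genes held mostly inhibitors of early signaling and transcripts, such as the dual-specificity phosphatases that inactivate MAP kinases and the ZFP36 proteins that destabilize early transcripts, together with other induced genes such as *Cd69*, *Cd83* and *Mcl1*. Of these, 28 were tested, and 0 passed in either direction. The median log2 fold change was 0.05. At an unadjusted p under 0.05, 0 genes were higher and 1 was lower, against 6.72% and 5.22% of all tested genes. The lower one was *Spred1*, an inhibitor of RAS to ERK signaling, with 31.2, 44.4 and 34.4 in WT and 22.3, 14.1 and 22.5 in *Hvem*-/- (log2 fold change -0.91, SE 0.397, edgeR adjusted p = 0.358). *Zfp36*, which targets AU-rich transcripts including those of early genes, had means of 670 ± 84.9 in WT and 571 ± 62.9 in *Hvem*-/- (SD, n = 3 each), and its log2 fold change was -0.24 (adjusted p = 0.516), or -0.09 after the GC and length trend was removed. *Spred2*, with the same role as *Spred1*, had a log2 fold change of -0.59 and an adjusted p of 0.594.

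The factors and kinases upstream of the early genes were all expressed. All 30 of those found in the table were tested and 0 passed, with a median log2 fold change of 0.02. At an unadjusted p under 0.05, 0 were lower and 1 gene was higher in *Hvem*-/-, against 5.22% and 6.72% of all tested genes. That gene was *Mef2c*, a MADS-box factor activated by the antigen receptor in B cells, at 2919, 3574 and 3177 in WT and 3808, 3870 and 4007 in *Hvem*-/- (log2 fold change 0.27, SE 0.106, edgeR adjusted p = 0.311). Its groups did not overlap, but its log2 fold change was 0.06 (adjusted p = 0.910) after the GC and length trend was removed. The log2 fold change of *Atf1*, a relative of CREB, was 0.32 (adjusted p = 0.433), and that of *Nfatc1*, a calcium-regulated factor, was -0.29 (adjusted p = 0.445). Among 19 AP-1 partners and other bZIP factors, 13 were tested and 0 passed, with a median of 0.05. Beside the same shares of all tested genes, 0 were lower and 2 were higher in *Hvem*-/- at an unadjusted p under 0.05. These were *Atf2*, a dimer partner of JUN, at 594, 560 and 513 in WT and 657, 694 and 889 in *Hvem*-/- (log2 fold change 0.42, SE 0.135, adjusted p = 0.202), and *Nfe2l2*, a regulator of the oxidative stress response (0.39, adjusted p = 0.313). After the GC and length trend was removed, *Atf2* was at 0.22 (adjusted p = 0.600). For *Mafg*, a small MAF protein, the log2 fold change was -1.11 (adjusted p = 0.526).

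Markers of other cells were measured because T cells and myeloid cells also express early response genes. The 15 T cell markers summed to 182 to 202 CPM in WT and to 164, 113 and 99.0 CPM in *Hvem*-/- replicates 2, 4 and 6, without overlap, and none of the 15 was at 0 in all samples. Of the 11 tested, 8 were below 0 and 0 passed an adjusted p of 0.01, and the median log2 fold change was -0.79. *Cd3e*, a chain of the T cell receptor complex, had 106, 127 and 122 in WT and 78.0, 68.0 and 50.8 in *Hvem*-/- (edgeR adjusted p = 0.126). *Cd4* and *Cd28* had log2 fold changes of -1.08 (adjusted p = 0.162) and -1.10 (adjusted p = 0.213). The part of T cell RNA in the levels of the early genes was not tested. *Nr4a1* and *Ier2* were lowest in *Hvem*-/- replicates 4 and 6, the samples with the lowest T cell marker sums. In *Hvem*-/- replicate 2, whose sum was also below every WT sample, *Nr4a1* was as high as in the highest WT sample (17.8 normalized counts). *Egr1* was higher in *Hvem*-/- than in WT, and *Jun* had its highest value in *Hvem*-/- replicate 6 (13.0).

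Myeloid markers, 14 in the table and 8 tested with 0 passing, summed to 181 to 250 CPM in WT and to 318, 147 and 217 CPM in *Hvem*-/- replicates 2, 4 and 6, with *C1qa* at 0 and *Cd14* and *Fcgr1* at 1 read each in all samples together. *Hvem*-/- replicate 2, the highest for 6 of the early genes within its group, was also the highest in this sum. Their median log2 fold change was 0.05, and it was -0.84 without that replicate. *Cd68*, *Mpeg1* and *Fcer1g* had log2 fold changes of -0.39, 0.21 and -0.62. The part of myeloid RNA in these values was not tested. Without *Hvem*-/- replicate 2, the log2 fold change of *Egr1* was 0.28 and that of *Egr2* was -0.38.

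Of the markers of other B lineage stages, 4 plasma cell markers summed to 151 to 206 CPM in WT and 138 to 154 in *Hvem*-/-. This sum rests mostly on *Xbp1* (1965 reads over all samples) and *Prdm1* (853), and *Tnfrsf17* had 0 reads. Follicular B cell markers summed to 472 to 591 CPM in WT and 413 to 444 in *Hvem*-/-. Among 8 tested follicular markers, 2 had a log2 fold change above 0 and 6 below. At the threshold 0 rose and 1 fell. This was *Fcer2a*, the low-affinity IgE receptor CD23, at 495, 406 and 305 in WT and 214, 214 and 169 in *Hvem*-/- (log2 fold change -1.01, SE 0.176, edgeR adjusted p = 0.0070). It had 1282 reads in WT, the most of any follicular marker, and 577 in *Hvem*-/-, so the follicular sum rests in part on this gene. *Fcer2a* did not pass in 6 of 13 alternatives, which were limma with a pseudocount of 1, the removal of the GC and length trend (adjusted p = 0.014) and the fits without WT replicate 1 or 3 or *Hvem*-/- replicate 4 or 6, with a highest adjusted p of 0.182. *Ebf1* and *S1pr1* had log2 fold changes of 0.36 and -0.63 and did not pass. The 2 tested plasma cell markers, *Xbp1* and *Prdm1*, had log2 fold changes of -0.28 and -0.27. Of 12 GC B cell markers 0 passed an adjusted p of 0.01 in edgeR, with *Rgs13*, a regulator of G protein signaling, nearest the threshold (log2 fold change 0.86, adjusted p = 0.028). *Rgs13* passed in DESeq2 (adjusted p = 0.0015) and in 3 of 13 alternatives in all, and its log2 fold change was 0.50 (adjusted p = 0.133) after the GC and length trend was removed. It was followed by the antigen receptor chains *Cd79a* (-0.45) and *Cd79b* (-0.35).

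Heat shock genes were included because they and the immediate early genes are both known to respond to tissue dissociation. The 16 genes summed to 7967 to 8939 CPM in WT and 6883 to 8868 in *Hvem*-/-, so the groups overlapped. Over all samples, *Hsp90ab1* (37971 reads), *Hsp90aa1* (28873) and *Hspa8* (28298) had the most reads of the list. *Hspa1a*, *Hspa1b* and *Hspb1* had only 7, 4 and 2, so the sum says little about them. Of the 16 genes, 12 were tested and 0 passed, with a median log2 fold change of 0.02. *Dnajb4*, an HSP40 cochaperone, had 18.6, 24.4 and 14.9 in WT and 54.6, 39.7 and 37.8 in *Hvem*-/-, without overlap (log2 fold change 1.20, SE 0.382, edgeR adjusted p = 0.202). *Hsf2*, a heat shock factor, and *Hsp90ab1*, a major chaperone, had log2 fold changes of 0.49 and -0.13, or 0.19 and -0.07 after the GC and length trend was removed. The part of sample handling in the levels of the early genes was not tested.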

How the data were processed

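GC B cells of 3 WT and 3 *Hvem*-/- samples were grouped by the submitters' labels. RNA was amplified and sequenced as paired ends. The authors aligned reads with STAR and ran DESeq2. CASAVA, TopHat2 2.0.8b and Cufflinks 2.1.1, with build mm10, stand in the submitters' processing notes, and the read counter is not given in the sources used here. The values the authors deposited are a signal, read counts divided by each sample's DESeq2 size factor. Their log2 fold changes, Wald score and p-values, also deposited, were not used.

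All values were whole multiples of 1 step per sample (100%, relative tolerance 1e-06), so reads were recovered by division. Because these reads were whole, edgeR's count test was used as the main test. It called 21 genes. Genotype alone was tested by quasi-likelihood in edgeR 4.0.16 (R 4.3.3), after filterByExpr and TMM, with Benjamini-Hochberg adjustment over 9653 genes and a threshold of 0.01. The filter kept 6 of the 10 genes. Each standard error was taken as the log2 fold change divided by the root of F. Exact intervals and floors (3 counts) cover counting error only, since the RNA was amplified and carried no molecular identifiers. No source states that samples of a genotype came from separate mice, so the spread behind each p-value is that between samples and may be technical. Alternatives were DESeq2 1.42.0, upper-quartile factors, no filter, at least 20 reads in 3 samples, a threshold of 0.05, limma 3.58.1 on log2(value + 1) and log2(value + 10), where fold changes of low genes are understated, a loess trend (span 0.5) on GC content and length removed, and each sample left out. Transcript lengths and GC content came from GENCODE vM21, with 20929 symbols matched directly and 1919 through a synonym. Scripts were tested on simulated data.

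The genes and lists were chosen with earlier results of these data known, so no list was tested as a set. Named were the 10 genes, *Tnfrsf14*, up to 3 genes per list with the smallest unadjusted p, every list gene past the threshold, and the 5 genes most correlated with the mean of the tested members. Relatives, markers and heat shock genes at or near 0 reads, *Bcl6*, *Hsp90aa1* and *Hspa8* were named beyond this rule.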

Additional observations from a re-analysis of the deposited data

How the results depend on the processing

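None of the 10 genes was called under any alternative, with 3 to 10 of them tested. Under DESeq2 only *Egr1* could be called, since no other gene of the 10 had an adjusted p. Among all genes, 21 were called in the main test, 49 at an adjusted p of 0.05, 49 by DESeq2 at 0.01 (adjusted p given for 3851 genes), 84 without a filter on low counts and 9 after the GC and length trend was removed. Leaving out 1 sample gave 3 (without WT replicate 1) to 31 genes (without *Hvem*-/- replicate 2), with 13 without WT replicate 3 and 12 without *Hvem*-/- replicate 4. Upper-quartile factors gave 20, the stricter filter 22 and limma 14 and 21 with pseudocounts of 1 and 10. Log2 fold changes near 0 turned direction in *Egr2* and *Junb*. *Egr2* went to 0.029 without WT replicate 5, within a range of -0.38 to 0.029 over samples left out. *Junb* went to 0.26 after the GC and length trend was removed, and ranged from -0.25 to 0.25 over samples left out, with 0.03 without WT replicate 1, 0.05 without WT replicate 5 and 0.25 without *Hvem*-/- replicate 6. The cause was not tested. In all, 198 of 228 alternative values kept their direction and side of the threshold or stayed within the spread, 25 moved and 5 reversed. The 198 include the fold changes of single genes listed again at a threshold of 0.05, which cannot alter them. *Tnfrsf14* ranged from -6.74 (without *Hvem*-/- replicate 6) to -2.38 over samples left out. No paired analysis was possible because WT samples are numbered 1, 3 and 5 and *Hvem*-/- samples 2, 4 and 6, and so share no number, and which of them came from the same chimera is not given in the sources used here. With 3 samples a group and 0 to 43 reads per sample for all but *Egr1* and *Egr2*, depth limits 8 of the 10 genes.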
